A study of Mus musculus with 6 samples.

Results

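The 9 genes described here encode proteins of the tight and adherens junctions of lung cells: the claudins Cldn3, Cldn4, Cldn5, Cldn7 and Cldn18, occludin (Ocln), the junctional adhesion molecule F11r, the scaffold protein Tjp1 (ZO-1) and E-cadherin (Cdh1). They were taken by name, and every probe set whose annotation gives only that symbol was used, which gave 14 probe sets of 20380 with a single symbol, or 9 genes of 12393. Their mRNA was compared between 3 whole lung samples of Igf1-/- embryos, homozygous for a null allele of insulin-like growth factor 1, and 3 of Igf1+/+ wild type embryos, all at embryonic day 18.5 and from C57BL/6J heterozygous parents. No lung received any agent, and per the study's methods the pups were delivered by C-section and helped to breathe before the lungs were dissected. Each replicate was hybridised to 1 Affymetrix mouse array, and levels are given as log2 values from RMA, the background correction, normalization and summary applied by the authors. The labels mention pooled lungs whereas the methods describe separate RNA samples. It was not settled whether an array stands for 1 animal, so that p-values measure the spread between these 6 samples.

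Tight junctions seal the space between neighbouring epithelial or endothelial cells. Claudins form the strands and set which ions and water pass, occludin and junctional adhesion molecules lie beside them in the membrane, and scaffold proteins such as ZO-1 tie them to actin. Below them, cadherins of the adherens junction hold the cells together through catenins. In the lung before birth, the claudins of the distal epithelium separate the fluid-filled air spaces from the tissue, and endothelial claudin 5 lines the vessels.

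Sequences around the transcription start, 250 bases before it and 50 after, were read for 8 of the 9 genes from RefSeq (build GRCm38.p6), with 11 starts in all. They were searched on both strands for the E-box CAGGTG, the letters read by the Snail and Zeb repressors of epithelial genes, and for the AP-1 motif TGANTCA. An E-box was found at 6 of the 11 starts, in Cldn3, Cldn4, Cldn7, F11r and Ocln, and in 20.2% of all 32851 promoters of the same length. The windows of the 2 Ocln starts overlap, and the E-box of the second is 1 of the 2 of the first. The AP-1 letters were found at 2 starts, in Cldn4 and F11r, and in 7.81% of all promoters. The starts of Cldn5, Cldn18 and Tjp1 and the first listed start of Cldn7 held neither motif. No E-box overlapped an AP-1 motif in these sequences, and a match describes letters only. The sequences below are those of the member with the largest difference (Cldn7, at its second listed start), of the neighbouring genes Cldn3 and Cldn4, and of the 2 genes with a probe set that was lower on every Igf1-/- array (F11r at 1 of its 2 probe sets, and Ocln, shown at its first listed start). They are written 5′ to 3′ along the gene, with E-boxes and AP-1 motifs in capitals.
Cldn7, chr11:69965171-69965470, plus strand: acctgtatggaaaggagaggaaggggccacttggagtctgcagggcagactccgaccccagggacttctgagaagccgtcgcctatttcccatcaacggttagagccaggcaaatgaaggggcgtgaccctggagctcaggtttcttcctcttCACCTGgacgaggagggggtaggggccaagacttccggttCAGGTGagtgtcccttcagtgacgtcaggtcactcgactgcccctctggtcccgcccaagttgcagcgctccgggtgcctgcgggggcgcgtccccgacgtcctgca
Cldn3, chr5:134985964-134986263, plus strand: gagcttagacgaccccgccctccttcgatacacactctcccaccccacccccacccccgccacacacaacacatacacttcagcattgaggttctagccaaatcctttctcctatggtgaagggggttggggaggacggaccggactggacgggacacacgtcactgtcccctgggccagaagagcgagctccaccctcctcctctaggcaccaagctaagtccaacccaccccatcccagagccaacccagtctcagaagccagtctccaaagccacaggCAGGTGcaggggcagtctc
Cldn4, chr5:134946885-134947184, minus strand: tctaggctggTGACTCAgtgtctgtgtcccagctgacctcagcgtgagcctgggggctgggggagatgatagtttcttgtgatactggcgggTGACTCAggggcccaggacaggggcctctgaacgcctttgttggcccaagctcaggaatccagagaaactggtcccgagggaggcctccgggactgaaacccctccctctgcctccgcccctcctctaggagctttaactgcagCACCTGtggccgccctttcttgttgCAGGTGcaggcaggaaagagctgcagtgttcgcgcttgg
F11r, chr1:171437311-171437610, plus strand: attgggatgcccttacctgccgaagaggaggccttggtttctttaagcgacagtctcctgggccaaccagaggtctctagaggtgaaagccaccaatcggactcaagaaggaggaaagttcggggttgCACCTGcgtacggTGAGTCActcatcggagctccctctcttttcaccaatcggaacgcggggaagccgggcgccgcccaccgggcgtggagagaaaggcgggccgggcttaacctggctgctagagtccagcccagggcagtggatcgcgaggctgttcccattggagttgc
Ocln, chr13:100552449-100552748, minus strand: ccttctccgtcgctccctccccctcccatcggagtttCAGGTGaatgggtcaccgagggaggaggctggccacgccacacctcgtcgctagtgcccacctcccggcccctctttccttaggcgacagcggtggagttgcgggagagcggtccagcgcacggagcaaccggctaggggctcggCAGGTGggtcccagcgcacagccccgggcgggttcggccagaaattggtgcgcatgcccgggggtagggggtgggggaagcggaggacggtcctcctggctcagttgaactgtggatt

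The 6 arrays correlated at 0.992 to 0.996 with each other, and their medians lay between 6.85 and 6.89. Some arrays stood apart. The liver markers Alb, Afp and Ttr were highest on the array of Igf1-/- replicate 2, where Alb read 10.81 against 6.10 to 8.67 on the others, and their summed level (log2 of the sum) was 11.31 there, 7.65 and 8.36 in the other Igf1-/- lungs and 7.08 to 9.21 on the Igf1+/+ arrays. The heart markers Myh6, Myl7, Nppa and Tnnt2 were highest in Igf1-/- replicate 3, with a summed level of 12.64 against 11.03 to 11.41 on the others. Igf1+/+ replicate 3 had the lowest array weight, 0.51. The inactivated gene itself read 8.87, 8.99 and 9.38 against 9.28, 9.85 and 9.65 at the brightest Igf1 probe set, with overlapping groups. The sources used here do not place that probe set within or outside the deletion, so it checks little about the labels. Only this Igf1 probe set is shown here, and the study lists Igf1 among its genes lower in Igf1-/- lungs on these arrays (FDR under 0.20).

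None of the 14 probe sets passed an adjusted p of 0.10 in limma, the level at which a gene is said here to have risen or fallen, where 0.557% of all 22626 mouse probe sets passed. The SAM statistic, named in the study's methods and computed here over the 10 distinct splits of the arrays because its settings are not given in full in the sources used here, called 1 of them, Cldn7, against 1.11% of all probe sets. An unadjusted p under 0.05 was reached by 3 (Cldn7, Cldn18 and Ocln), or 21.4% of the 14, against 12.5% of all probe sets. The 3 Igf1-/- values and the 3 Igf1+/+ values did not overlap at 4 of the 14, or 28.6%, against 18% of all probe sets. These 4 ran in both directions, with Cldn7 and 1 probe set of Cldn18 higher in the Igf1-/- lungs (10.8% of all probe sets were separated that way) and Ocln and 1 probe set of F11r lower (7.26%). The count of 4 became 8 without Igf1-/- replicate 3 and 8 without Igf1+/+ replicate 3, where fewer arrays make overlap rarer at any probe set. The share over all probe sets with an array left out is not given here, so that the 18% is no measure for these counts. The median difference over the 14 was 0.12 and over all probe sets 0.03. In whole lung, fewer cells of a type and less RNA per cell cannot be told apart in any of these values.

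**Figure D1:**
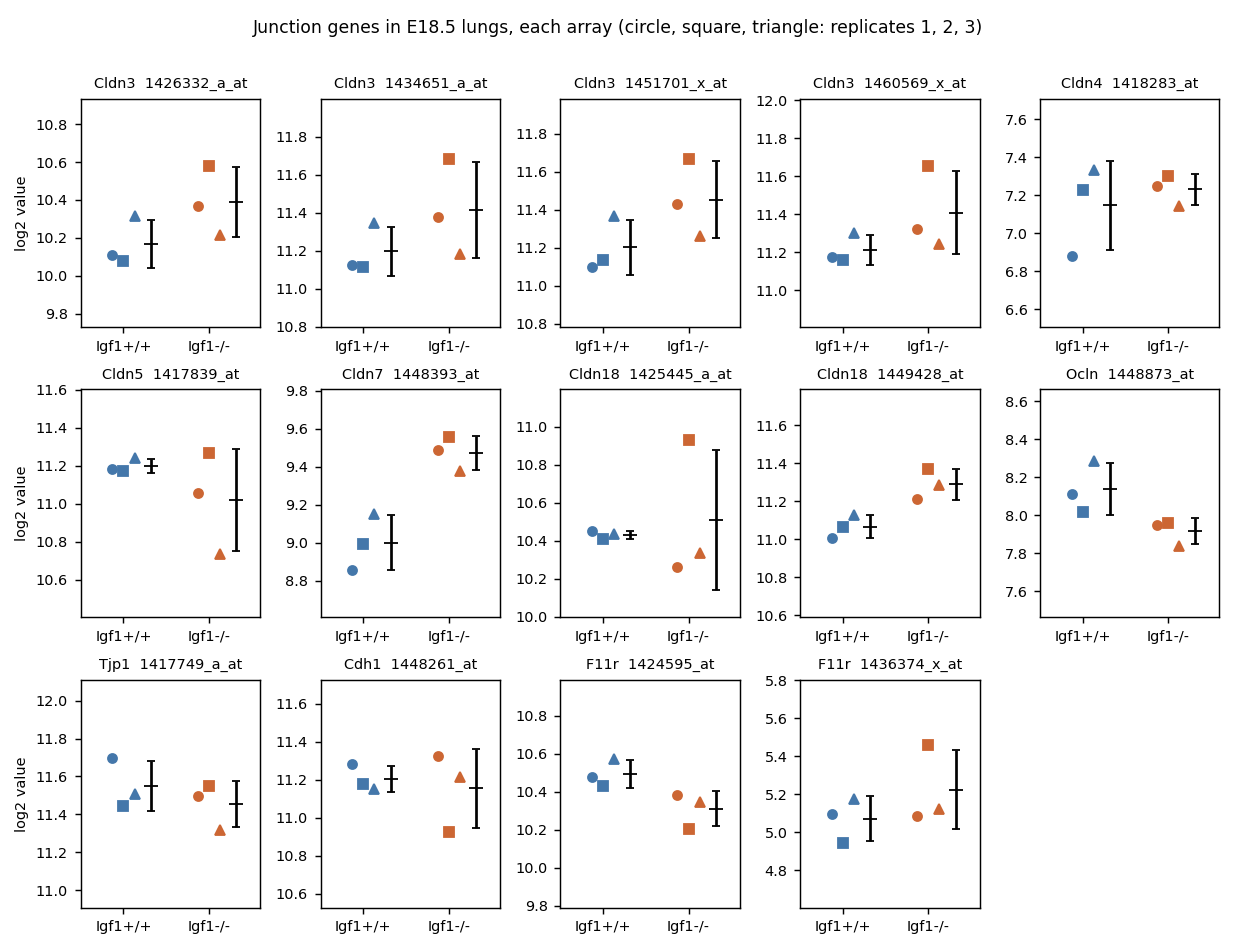
Log2 expression value (vertical axis) of each of the 14 probe sets on the 3 Igf1-/- and 3 Igf1+/+ arrays, 1 point per array and a bar at the group mean. The groups are separate for Cldn7, for Cldn18 at 1449428_at, for Ocln and for F11r at 1424595_at, and Igf1-/- replicate 2 is the highest point of all 4 Cldn3 probe sets.

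Cldn7, a claudin of epithelial cells that in part lies along the lateral membrane, showed the largest difference of the 9 genes. At its single probe set (1448393_at) the values were 9.49, 9.55 and 9.38 in Igf1-/- replicates 1, 2 and 3 and 8.86, 8.99 and 9.15 on the Igf1+/+ arrays. Every Igf1-/- lung was above every Igf1+/+ lung, and the spread within a genotype (SD 0.089 and 0.145, n = 3 each) was smaller than the gap between the means. The difference was 0.47 on the log2 scale (SE 0.09, 95% confidence interval 0.26 to 0.69), or 1.39-fold, with an adjusted p of 0.106 in limma, which missed the level of 0.10 and passed that of 0.20, as did 2.6% of all probe sets. It passed 0.10 without Igf1+/+ replicate 3 (adjusted p = 0.0474 in limma, difference 0.55) and lay between 0.229 and 0.303 without any 1 of the other arrays. The gene was among those selected by the study on these same arrays, so that its values are no independent evidence of a direction.

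Cldn3, a sealing claudin of the alveolar and airway epithelium, was read by 4 probe sets, and these followed each other closely over the 6 arrays (Pearson r 0.958 to 0.995). They share a gene and so are 1 measurement. At 1451701_x_at, whose suffix marks probes that other transcripts may also bind, the values were 11.43, 11.67 and 11.26 on the Igf1-/- arrays and 11.10, 11.14 and 11.37 on the Igf1+/+ arrays. The highest value was that of Igf1-/- replicate 2 and the highest Igf1+/+ value, in replicate 3, lay above the lowest Igf1-/- value, so that the groups overlapped, as they did at the other 3 probe sets. The difference was 0.25 (SE 0.12, adjusted p = 0.423 in limma), and 0.22, 0.22 and 0.20 at 1426332_a_at, 1434651_a_at and 1460569_x_at (adjusted p from 0.449 to 0.517). Without Igf1-/- replicate 2, the array with the highest liver markers, these differences were 0.14, 0.12, 0.08 and 0.07 in the same order. The part of liver RNA in this was not tested.

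Cldn4, the neighbour of Cldn3 on chromosome 5 and also a claudin of the epithelial barrier, read 7.25, 7.30 and 7.14 on the Igf1-/- arrays and 6.88, 7.23 and 7.33 on the Igf1+/+ arrays. The lowest and the highest value both belonged to the Igf1+/+ group. The difference was 0.09 (95% confidence interval -0.18 to 0.35, adjusted p = 0.794 in limma), and it turned to -0.05 without Igf1+/+ replicate 1 and was 0.18 without Igf1+/+ replicate 3.

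Cldn18, the claudin with a lung transcript that is abundant in alveolar epithelium, was read by 2 probe sets that differed. At 1449428_at the values were 11.21, 11.37 and 11.29 on the Igf1-/- arrays and 11.01, 11.06 and 11.13 on the Igf1+/+ arrays, without overlap. The difference there was 0.22 (SE 0.08, 95% confidence interval 0.05 to 0.40, adjusted p = 0.298 in limma), or 1.17-fold. At 1425445_a_at the values were 10.26, 10.93 and 10.34 against 10.45, 10.41 and 10.43. Here 2 of the 3 Igf1-/- lungs lay below all Igf1+/+ lungs and replicate 2 well above them. The difference of 0.08 (SE 0.16, adjusted p = 0.863 in limma) turned to -0.13 without Igf1-/- replicate 2, whereas that of 1449428_at was 0.18. RefSeq lists 2 starts for this gene, and the sources used here do not say which transcripts each probe set reads. The 2 probe sets correlated at r = 0.49 over the 6 arrays.

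Cldn5, the tight junction protein of endothelial cells, read 11.05, 11.27 and 10.73 on the Igf1-/- arrays and 11.18, 11.17 and 11.24 on the Igf1+/+ arrays. The Igf1+/+ values lay close together (SD 0.04, n = 3), and the Igf1-/- group held both the highest and the lowest value (SD 0.27, n = 3). The difference was -0.18 (SE 0.13, adjusted p = 0.583 in limma) and -0.04 without Igf1-/- replicate 3, the array with the highest heart markers, and -0.30 without Igf1-/- replicate 2.

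Among the members that are not claudins, Ocln and 1 of the 2 probe sets of F11r were lower in every Igf1-/- lung. Ocln, a membrane protein of the strand that regulates the passage of larger solutes, read 7.95, 7.96 and 7.84 on the Igf1-/- arrays and 8.11, 8.01 and 8.29 on the Igf1+/+ arrays. The difference was -0.22 (SE 0.09, 95% confidence interval -0.43 to -0.02, adjusted p = 0.366 in limma), and the gap between the nearest values of the groups was small against the spread of the Igf1+/+ lungs (SD 0.14, n = 3). Without Igf1+/+ replicate 3, which read highest, the difference was -0.15. Centred on the endothelial markers of each array, the difference was -0.10 and the groups overlapped.

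F11r, an immunoglobulin-type adhesion molecule also known as JAM-A, read 10.38, 10.21 and 10.35 at 1424595_at on the Igf1-/- arrays and 10.48, 10.43 and 10.57 on the Igf1+/+ arrays. The difference was -0.18 (SE 0.08, adjusted p = 0.404 in limma). Its other probe set, 1436374_x_at, read 5.09, 5.46 and 5.12 against 5.10, 4.94 and 5.17, and differed by 0.15 with overlapping groups (adjusted p = 0.614 in limma). That probe set was the only one of the 14 with a mean below the median of all probe sets, and its highest value was again that of Igf1-/- replicate 2, without which the difference was 0.03.

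Tjp1, the ZO-1 scaffold that binds claudins, read 11.50, 11.55 and 11.32 on the Igf1-/- arrays and 11.70, 11.44 and 11.51 on the Igf1+/+ arrays, a difference of -0.09 (SE 0.10, adjusted p = 0.712 in limma). That of Tjp1 was -0.03 without Igf1-/- replicate 3 and -0.02 without Igf1+/+ replicate 1, and -0.14 and -0.15 without Igf1-/- replicate 2 and Igf1+/+ replicate 2. Cdh1, the cadherin that defines epithelial adherens junctions, read 11.33, 10.92 and 11.22 against 11.28, 11.18 and 11.15, a difference of -0.05 (95% confidence interval -0.29 to 0.20, adjusted p = 0.877 in limma). The groups overlapped for both genes, and with each array centred on its endothelial markers, which were lower in the Igf1-/- lungs, the differences turned to 0.03 for Tjp1 and 0.07 for Cdh1. For Cdh1 the interval spans changes of up to 0.29 in the lower direction, and the difference was 0.07 without Igf1-/- replicate 2.

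**Figure D2:**
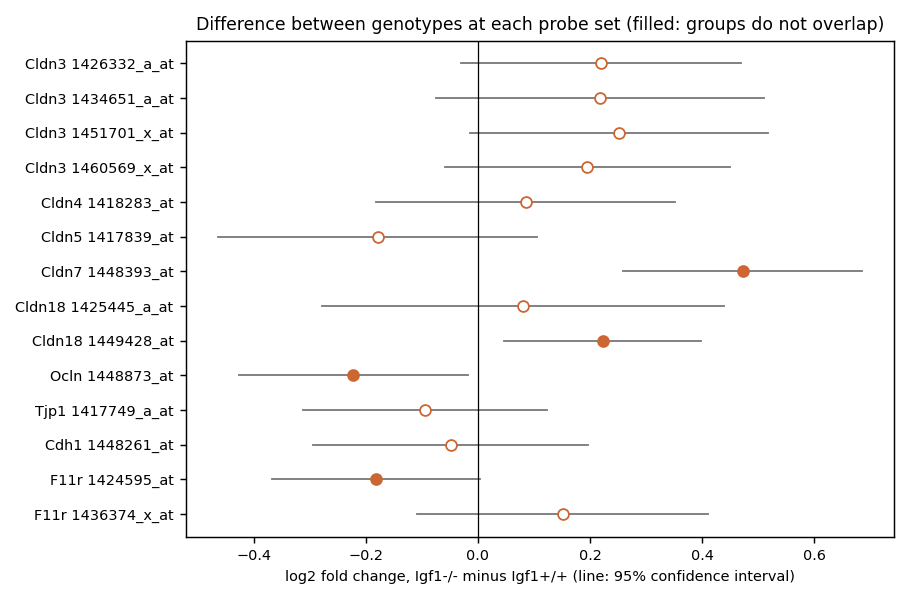
Difference between genotypes on the log2 scale (horizontal axis, Igf1-/- minus Igf1+/+) at each member probe set, with the 95% confidence interval from limma as a line and filled points where the groups do not overlap. Cldn7 lies farthest from 0, and of the 14 intervals those of Cldn7, Ocln and Cldn18 at 1449428_at leave out 0.

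A level in whole lung moves with the share of the cells that hold the RNA. Every member except Cldn5 was therefore also expressed relative to the mean of 17 epithelial markers on the same array. Cldn5 was expressed relative to 18 endothelial markers. The first scale does not account for RNA of a member, such as Tjp1 or F11r, from cells outside the epithelium, which was not tested. The epithelial marker mean itself was nearly level between genotypes, at 9.59, 9.62 and 9.54 on the Igf1-/- arrays and 9.51, 9.53 and 9.61 on the Igf1+/+ arrays. On this scale Cldn7 lay at -0.11, -0.07 and -0.16 on the Igf1-/- arrays and at -0.65, -0.54 and -0.46 on the Igf1+/+ arrays, a difference of 0.44 (exact two-sided permutation p = 0.1, the smallest that 3 against 3 arrays can give). Its groups stayed apart, as did those of Cldn18 at 1449428_at (difference 0.19), Ocln (-0.26) and F11r at 1424595_at (-0.22), each with the same exact permutation p of 0.1, among 14 probe sets compared. One Cldn3 probe set, 1460569_x_at, was separated on this scale but not in the log2 values (difference 0.16), and the other 3 overlapped on both. Cdh1 differed by -0.08 and Tjp1 by -0.13, with overlapping groups.

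**Figure D3:**
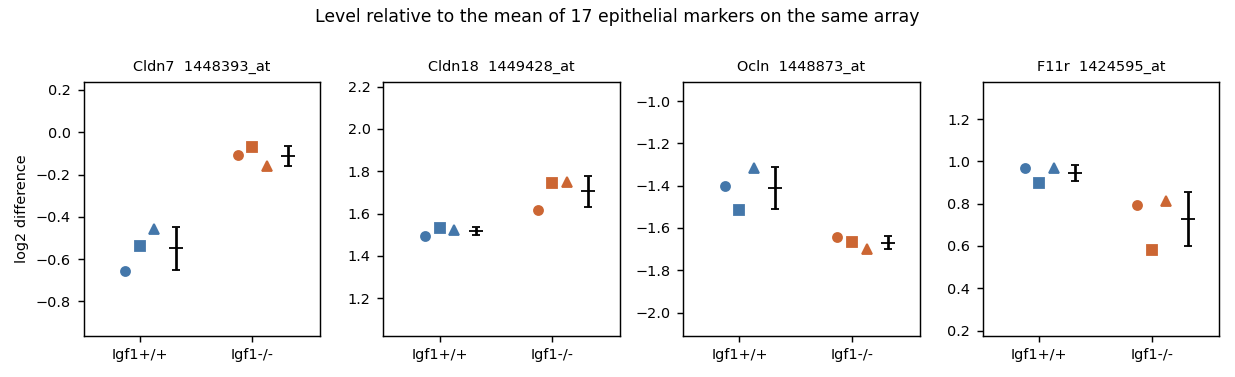
Level of Cldn7, Cldn18 (1449428_at), Ocln and F11r (1424595_at) relative to the mean of 17 epithelial markers on the same array (vertical axis, log2 difference), 1 point per array and a bar at the group mean. At these probe sets Cldn7 and Cldn18 lie higher and Ocln and F11r lower in the 3 Igf1-/- arrays than in all 3 Igf1+/+ arrays.

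Cldn5 relative to the endothelial markers was 1.48, 1.69 and 1.29 on the Igf1-/- arrays and 1.45, 1.63 and 1.56 on the Igf1+/+ arrays. The difference of -0.06 was smaller than the spread within either genotype (SD 0.20 and 0.09, n = 3 each, exact two-sided permutation p = 0.7). The endothelial markers were themselves 0.12 lower on average in the Igf1-/- lungs, with 14 of 18 below 0. Cdh5, the cadherin of endothelial adherens junctions, read 9.46, 9.54 and 9.40 against 9.84, 9.58 and 9.72 at its brighter probe set, a difference of -0.24 without overlap (adjusted p = 0.319 in limma). Its dimmer probe set differed by 0.01 with overlapping groups.

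Other genes of the same structures were counted from lists drawn up by function. The study's own genes with changed expression on these arrays had been read before, and they include Pard6b, Mpp5 and Gja1 as lower. The shares below are therefore no independent evidence about these structures. Of 90 listed genes, 75 had a probe set, with 140 probe sets in all. The Igf1-/- mean was higher at 67 of them and lower at 73. Of these, 3 probe sets (2.14%) passed an adjusted p of 0.10, against 0.557% of all probe sets, with 1 higher (0.164% of all probe sets) and 2 lower (0.393%). An adjusted p of 0.20 was passed by 8 of the 140, and by 2.6% of all probe sets. The median difference over the 140 was -0.01.

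The 2 lower probe sets both read Pard6b, a polarity protein that positions tight junctions. At 1423174_a_at it read 7.91, 7.85 and 7.61 on the Igf1-/- arrays and 9.02, 8.51 and 8.59 on the Igf1+/+ arrays, so that the groups were far apart. Pard6b fell by 0.92 at both probe sets (adjusted p = 0.0498 and 0.0645 in limma), to 0.53 of the Igf1+/+ level. Its relatives Pard6a and Pard6g differed by at most 0.03 at their 3 probe sets. The probe set that passed in the other direction read Cdh16, a cadherin outside the classical group, which rose by 0.57, from 9.27, 9.48 and 9.58 on the Igf1+/+ arrays to 9.91, 10.17 and 9.96 on the Igf1-/- arrays (adjusted p = 0.093 in limma). None of these 3 calls held when any 1 Igf1-/- array was left out, where the adjusted p in limma lay from 0.123 to 0.252. Cdh16 also missed 0.10 without Igf1+/+ replicate 1 or 2 (adjusted p = 0.242 and 0.195 in limma) and with quantile normalization (0.102). Without Igf1+/+ replicate 3 the count of 3 became 11.

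The 5 probe sets between 0.10 and 0.20 were all lower in the Igf1-/- lungs. Of all probe sets, 1.62% passed 0.20 in that direction and 0.981% in the other. These 2 shares include the 0.393% and 0.164% that also passed 0.10. Evpl, which encodes the plaque protein envoplakin, had a mean of 7.71 ± 0.01 (SD, n = 3) against 8.11 ± 0.11, a difference of -0.40 (adjusted p = 0.104 in limma). Mpp5, the polarity scaffold Pals1, differed by -0.40, -0.34 and -0.57 at its 3 probe sets without overlap at any of them, and 2 of the 3 passed 0.20. Magi1, another scaffold of the tight junction, differed by -0.32 at 1451893_s_at and by -0.17 and -0.15 at the other 2 probe sets. Gja1, the main connexin of gap junctions, differed by -0.53 at 1415800_at, and its other 5 probe sets differed by -0.24 to -0.50. Without Igf1+/+ replicate 3, Evpl, Mpp5 at 1421064_at and Magi1 at 1451893_s_at passed 0.10 (adjusted p = 0.0913, 0.0759 and 0.09997 in limma).

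**Figure D4:**
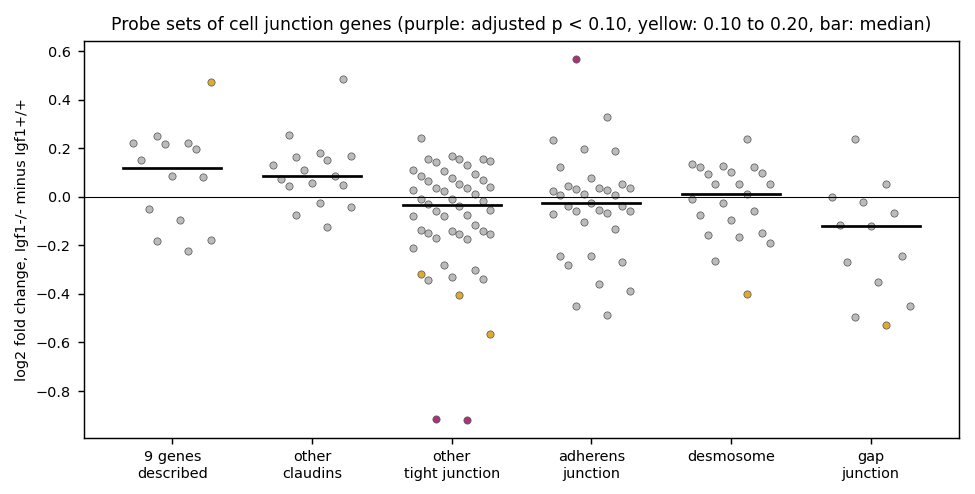
Difference between genotypes on the log2 scale (vertical axis) of every probe set of the members and of 5 lists of other junction genes, 1 point per probe set and a bar at the median of the list. Pard6b at -0.92 and Cdh16 at 0.57 are the points past an adjusted p of 0.10, and the medians of all groups lie between -0.12 and 0.12.

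The other claudins gave 17 probe sets of 13 genes, and 16 of the 17 had a mean below the median of all probe sets. None of the 17 was called by limma or by SAM, and 3 had an unadjusted p under 0.05, as did 12.5% of all probe sets. The Igf1-/- mean was higher at 13 and lower at 4, with a median of 0.09. Over all 22626 probe sets it was higher at 13162, with a median of 0.03. The highest difference was that of Cldn6, at 0.49, whose groups overlapped (6.34, 6.32 and 6.80 against 5.60, 6.05 and 6.35, adjusted p = 0.355 in limma). Cldn2 at 1 of its 2 probe sets, Cldn15 and Cldn19 were higher in every Igf1-/- lung by 0.26, 0.17 and 0.16, at dim probe sets with means between 4.17 and 5.78. Such an upward separation was seen at 10.8% of all probe sets. Cldn10, the only one of these claudins above the median, differed by 0.15 with overlapping groups (adjusted p = 0.562 in limma). These claudins were named after their values had been seen.

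Of the catenins, Tjp3, Marveld2, Jam2, Jam3, Epcam and Cdh5, relatives or partners of the members listed by name, none passed an adjusted p of 0.20 in limma. Ctnnb1, beta-catenin, differed by -0.03, 0.23 and 0.05 at its 3 probe sets, and Ctnnd1, p120 catenin, by 0.01. Ctnna1, alpha-catenin, differed by 0.04 at 1448149_at, where the 6 values lay between 11.94 and 12.02, and by -0.13 and -0.04 at the others. Tjp3, a relative of Tjp1, differed by 0.07, and Marveld2, a tight junction protein of corners where 3 cells meet, by -0.14. Jam2 and Jam3, relatives of F11r, differed by -0.12 to 0.14 over 6 probe sets, all with overlapping groups. Epcam, an adhesion molecule known to bind Cldn7, read 9.13, 9.34 and 9.07 against 8.75, 8.73 and 9.07, a difference of 0.33 (SE 0.11, adjusted p = 0.303 in limma) with groups that overlapped at 9.07, the value of Igf1-/- replicate 3 and Igf1+/+ replicate 3. Without Igf1+/+ replicate 3, Epcam differed by 0.44 and Ctnnb1 at 1430533_a_at by 0.34, and both passed 0.10 (adjusted p = 0.0895 and 0.0977 in limma).

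The cell types around these junctions differed in their markers. Of the listed markers, 8 of 11 alveolar type I genes, 10 of 11 alveolar type II genes and all 17 epithelial genes had a probe set, with Sftpc of alveolar type II cells at 14.37 to 14.47 and Nkx2-1, the transcription factor of lung epithelium, at 6.32 to 7.25. The 17 epithelial markers ran both ways, with 10 higher and 7 lower and a median of 0.06, and none passed 0.10 in limma. Of the 17, 5 had an unadjusted p under 0.05 and SAM called 1, against 12.5% and 1.11% of all probe sets. The keratin Krt18 was lowest among them, at -0.36 (adjusted p = 0.103 in limma, and 0.0861 without Igf1+/+ replicate 3), and Krt8 differed by -0.17 and Krt19 by -0.09. All 8 alveolar type I markers were lower in the Igf1-/- lungs, with a median of -0.32. Of these, 2 passed the test, Aqp5, the water channel of type I cells, which fell by 0.98 (adjusted p = 0.0173 in limma), and Rtkn2, which fell by 1.67 (adjusted p = 0.0382 in limma), while Ager, Pdpn and Hopx differed by -0.28, -0.31 and -0.33. Aqp5 passed with each array left out in turn, whereas Rtkn2 did not pass without Igf1-/- replicate 1 (adjusted p = 0.149 in limma), Igf1-/- replicate 3 (0.166) or Igf1+/+ replicate 1 (0.140). Of 10 alveolar type II markers, 8 were higher and 2 lower, with a median of 0.11. Their part in the levels of the claudins was not tested.

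**Figure D5:**
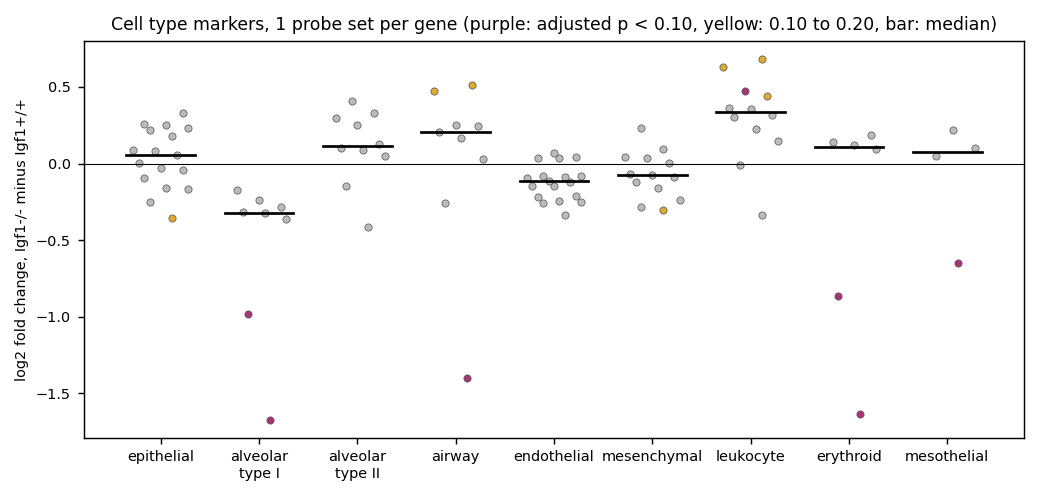
Difference between genotypes on the log2 scale (vertical axis) of the markers of 9 cell types, 1 probe set per gene, with a bar at the median of each list. The alveolar type I markers lie below 0 (median -0.32), the leukocyte markers mostly above it (median 0.34) and the epithelial markers on both sides (median 0.06).

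Leukocyte markers were higher, at 10 of 12 genes with a median of 0.34, and Cd52 rose by 0.47 (adjusted p = 0.0665 in limma). Cd52 did not pass when any array other than Igf1+/+ replicate 3 was left out (adjusted p from 0.121 to 0.214 in limma). The mean over the 12 leukocyte markers did not overlap, at 9.02, 8.78 and 8.77 on the Igf1-/- arrays against 8.55, 8.63 and 8.49. Of the 12, 7 were separated upward and 0 downward, as were 10.8% and 7.26% of all probe sets. The summed level, set mostly by the brightest markers such as Lyz2 (difference -0.33), overlapped between genotypes. It read 13.53, 13.27 and 13.11 on the Igf1-/- arrays against 13.41, 13.21 and 13.08. The 13 mesenchymal markers had a median of -0.07. The 9 airway markers had a median of 0.21, with 7 higher and 2 lower. Of these 9, 4 were separated upward and 1 downward, and SAM called 3, against 1.11% of all probe sets. The secretoglobin Scgb3a1 fell by 1.40 (adjusted p = 0.0161 in limma). Cyp2f2 and Tppp3 differed by 0.51 and 0.47 without overlap (adjusted p = 0.106 and 0.107 in limma). Of the 6 erythroid markers, with a median of 0.11, Slc4a1 fell by 1.64 (adjusted p = 0.000146 in limma) and Alas2 by 0.87 (0.0754). Of the 4 mesothelial markers, with a median of 0.08, Msln fell by 0.65 (adjusted p = 0.0389 in limma). Dim probe sets, with a mean below the median of all, made up 3 of the 6 erythroid and 2 of the 4 mesothelial markers. The medians of these lists therefore say little about the cells. Scgb3a1 and Slc4a1 passed with each array left out in turn. Alas2 passed only without Igf1-/- replicate 1 or Igf1+/+ replicate 3 and otherwise reached 0.133 to 0.254, and Msln passed only without Igf1-/- replicate 2 or Igf1+/+ replicate 3 and otherwise reached 0.102 to 0.141 (adjusted p in limma). These markers were named after their values had been seen. The 6 listed repressors of epithelial genes, of the Snail, Zeb and Twist families, ran both ways, with Twist2 at 0.37 without overlap (6.14, 6.12 and 6.40 against 5.76, 5.98 and 5.80, adjusted p = 0.1995 in limma), Twist1 at 0.02, Snai1 at 0.40 (8.05, 8.10 and 8.17 against 7.66, 7.46 and 8.01), Snai2 at -0.33 (8.25, 8.04 and 8.33 against 8.58, 8.66 and 8.39) and Zeb1 and Zeb2 at -0.04 and -0.03. Snai1 and Snai2 were also without overlap, so that 2 of the 6 were separated upward and 1 downward, as were 10.8% and 7.26% of all probe sets. None of the 6 was called by limma or SAM, and 3 had an unadjusted p under 0.05, as did 12.5% of all probe sets. Without Igf1+/+ replicate 3, Snai1 differed by 0.55 and passed 0.10 (adjusted p = 0.0489 in limma).

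Over the 6 arrays the pattern of Cldn7 was most like those of Capn1 (Pearson r = 0.993), Zfp280d (0.992) and Rac2 (0.986), among 10431 named probe sets with a mean above the median. The pattern of Cdh1 was most like those of Pdf (0.989), Pigk (0.988) and Cnn3 (0.987). With 6 arrays of 2 genotypes and so many probe sets compared, these values are a description of the arrays. Among the members, Cldn7 followed Cldn18 at 1449428_at (r = 0.94) and ran opposite to F11r at 1424595_at (r = -0.72), and Ocln followed F11r at that probe set (r = 0.78). Cdh1 ran opposite to Cldn18 at 1425445_a_at (r = -0.93), where both turned on the value of Igf1-/- replicate 2.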

How the data were processed

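RMA, run by the authors over 12 arrays (6 of lung, 6 of cochlea), gave the log2 values that were deposited. The cochlear values and scans are not analysed here, and no batch is given in the labels. Of 22690 probe sets, 64 controls were left out, which leaves 22626. Names came from the platform annotation, in which 20380 have 1 symbol, 691 several and 1555 none. With R 4.3.3 and limma 3.58.1, genotype was fitted as the only term to the 6 lung arrays over all mouse probe sets, with Benjamini-Hochberg adjustment over all of them. A log2 fold change is the Igf1-/- mean minus the Igf1+/+ mean, calls are at an adjusted p under 0.10, and counts under 0.20 are given beside them, the levels of the study's methods. Marker lists used the brightest probe set per gene. Levels were not compared between probe sets, since probes differ in affinity, and RMA makes small differences of dim probe sets smaller. The code was tested on simulated data.

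All member probe sets were named, and other junction genes by an adjusted p under 0.20 or as direct partners of a member. The members and lists were chosen with earlier results of these data known, and the study's own list of changed genes had been read. Precision is limited by the number of arrays. The alternatives were the replicate block, quantile normalization, median or marker centring, dim or control probe sets left out or kept, other variance models, array weights, SAM, the stricter and looser levels, and leaving out each array.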

Additional observations from a re-analysis of the deposited data

How the results depend on the processing

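The 6 arrays limit every value. For Cldn7 (1448393_at) the difference kept its direction, from 0.40 to 0.55 with 1 array left out and from 0.44 to 0.59 under the other alternatives, and the call at 0.10 turned on the setting. It was called, alone among the 14 member probe sets, when dim probe sets were left out (0.47, adjusted p = 0.0889), with a variance trend and robust estimates (0.47, 0.0751), with array weights (0.48, 0.041), with SAM (0.47, 0.0714), centred on the epithelial markers (0.44, 0.0984), centred on the endothelial markers (0.59, 0.0239), without Igf1+/+ replicate 3 (0.55, 0.0474) and at a level of 0.20 (0.47), each giving a count of 1 in place of 0. With 1 array left out that count ran from 0 to 1. Centring on the endothelial markers adds the same 0.12 to every probe set. The count of member probe sets whose groups do not overlap was 4 and became 7 with that centring. All 7 were higher in the Igf1-/- lungs, whereas the groups of Ocln and of F11r at 1424595_at then overlapped. The separation in both directions seen in the log2 values was therefore not kept with that centring. The share of all probe sets separated with that centring is not given here. Leaving out 1 array gave counts from 4 to 8, with 8 without Igf1-/- replicate 3 and without Igf1+/+ replicate 3. Fewer arrays make overlap rarer there. The count of other junction probe sets called was 3, and became 7 with array weights, 0 without moderation, 1 at a level of 0.05, 8 at 0.20 and from 0 to 11 with 1 array left out. Over all probe sets 126 were called, 628 with array weights, 331 with endothelial centring, 252 by SAM, 204 with the variance trend, 1 without moderation, 54 at a level of 0.05 and 45 to 710 with 1 array left out, the highest without Igf1+/+ replicate 3. The cause of these shifts was not tested.

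The labels number the samples 1 to 3 in each genotype without saying that a number pairs them, and the deviations of same-numbered samples from their group means correlated at -0.04, -0.23 and -0.14. With the replicate number as a block, Cldn7 had a difference of 0.47 (adjusted p = 0.172 in limma), and 138 probe sets were called in place of 126.

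The directions of the following differences turned, and none of these was called. Centring on the endothelial markers gave 0.028 for Tjp1, 0.074 for Cdh1, 0.065 and 0.0061 for Jam2 (1431416_a_at and 1449408_at), 0.096 for Ctnnb1 (1420811_a_at), 0.085 for Ctnna1 (1437275_at), 0.028 for Krt19, 0.043 for Tie1, 0.11 for Laptm5 and 0.084 for Rag1. Centring on the epithelial markers gave -0.011 for Jam3 (1423503_at), -0.026 for Cdh5 (1422047_at) and -0.029 for Ctnnd1. Quantile normalization gave -0.017 for Jam2 (1431417_at), -0.0064 for Cdh5 (1422047_at) and 0.015 for Laptm5, and array weights gave 0.012 for Tie1 and 0.0017 for Laptm5. With 1 array left out the ranges were -0.048 to 0.18 for Cldn4, -0.13 to 0.21 for Cldn18 (1425445_a_at), -0.13 to 0.067 for Cdh1, -0.013 to 0.11 for Tjp3, -0.028 to 0.27 for Jam2 (1419288_at), -0.034 to 0.13 for Jam3 (1423503_at), -0.0013 to 0.18 for Jam3 (1423504_at), -0.16 to 0.046 for Jam2 (1431416_a_at), -0.079 to 0.10 for Jam2 (1431417_at), -0.19 to 0.0084 for Jam2 (1449408_at), -0.079 to 0.022 for Ctnnb1 (1420811_a_at), -0.16 to 0.21 for Cdh5 (1422047_at), -0.10 to 0.12 for Ctnnd1, -0.041 to 0.20 for Ctnnb1 (1450008_a_at), -0.058 to 0.18 for Pecam1, -0.19 to 0.21 for Laptm5, -0.10 to 0.74 for Myh6 and -0.33 to 1.66 for Alb.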
